A study of Mus musculus with 14 samples.

Results

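The 9 genes described here encode UDP-glucuronosyltransferases of mouse liver: Ugt1a1, Ugt2a3, Ugt2b1, Ugt2b5, Ugt2b34, Ugt2b35, Ugt2b36, Ugt2b37 and Ugt2b38. They were chosen by gene symbol from a table of 54446 genes and are represented there by 13 of 137767 transcripts. The level of a gene is the sum of its transcripts in TPM, a length-corrected share of all transcripts in a library. The study measured mRNA of purified hepatocytes from C57BL/6 mice in 14 libraries, to compare hepatocytes with and without the splicing factor Srsf1.

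In the HKO model, animals with floxed Srsf1 and an albumin-Cre transgene (srsf1f/f;albcre+/-) were compared with albumin-Cre animals (albcre+/-), neither treated. There were 2 libraries per genotype at postnatal day 10 (P10) and 2 per genotype at 1 month of age, where the library names read 5 weeks. The albumin promoter directs Cre to hepatocytes, and both HKO-model genotypes carry the transgene, but the controls are not labelled as floxed. In the acute model, all animals were srsf1f/f and were injected at 8 weeks of age with an AAV8 vector whose hepatocyte-directed TBG promoter drove iCre or, in the controls, GFP. These were sampled 2 weeks later, at 10 weeks, with 3 libraries per vector. The labels do not say that the replicates were separate animals, so the tests measure only the spread between these libraries. Srsf1 RNA was 43.6 and 46.4 TPM in P10 controls against 29.98 and 23.44 TPM in HKO. It was 23.2 and 20.0 against 7.74 and 9.17 TPM at 1 month, and 16.5 to 32.3 TPM in GFP-injected against 3.69 to 5.34 TPM in iCre-injected animals, so every knockout library was below its controls.

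UDP-glucuronosyltransferases are membrane enzymes of the endoplasmic reticulum. They transfer glucuronic acid from UDP-glucuronate to bilirubin, bile acids, steroid hormones and drugs, and the glucuronides so formed are soluble enough to be exported into bile or blood. UGT1A1 is the enzyme that conjugates bilirubin. The Ugt1a genes share their last exons and differ in the first, whereas the Ugt2 genes are separate genes that arose by duplication.

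Ugt1a1 lies on the plus strand of chromosome 1 (GRCm38, chr1:88211959-88218997). The other 8 lie within 534.4 kb of chromosome 5 (chr5:86889767-87424203) in the order Ugt2b34, Ugt2b1, Ugt2b35, Ugt2b36, Ugt2b5, Ugt2b37, Ugt2a3 and Ugt2b38, with Ugt2b35 alone on the plus strand. Coding sequences of Ugt2b5, Ugt2b37 and Ugt2b38 were at least 94.1% identical in each pair. Ugt1a1 was 54.4% to 57.3% identical to the other 8. Of the 31-base stretches of the main transcript, 56.4% in Ugt2b5, 52.9% in Ugt2b38 and 34.4% in Ugt2b37 occurred in transcripts of another gene, most often one of these 3. The share was 81.3% in Ugt1a1, which has exons in common with the other Ugt1a genes, 13.5% in Ugt2b36, 8.05% in Ugt2a3, and between 0.826% and 4.40% in Ugt2b1, Ugt2b34 and Ugt2b35. Levels of single genes are therefore less certain for Ugt1a1, Ugt2b5, Ugt2b37 and Ugt2b38, whose reads the quantification had to divide between near-identical transcripts.

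The 100 bases before the transcription start are shown for 6 members, to compare the 2 that were lowest in knockouts at P10 (Ugt2b1 and Ugt2a3), the bilirubin enzyme, and 2 of the near-identical genes (Ugt2b5 and Ugt2b38) with Ugt2b35 of the same cluster. All 9 members were found in the RefSeq promoter table of GRCm38.p6, from which the sequences come. Capitals mark the 6-base motifs GTTAAT or GTTAAC or the 13-base motif GTTATANTTTAAC, each searched on both strands.
Ugt1a1 (chr1:88211859-88211958, plus strand): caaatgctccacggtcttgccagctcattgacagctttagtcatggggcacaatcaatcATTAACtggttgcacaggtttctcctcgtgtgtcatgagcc
Ugt2a3 (chr5:87337196-87337295, minus strand): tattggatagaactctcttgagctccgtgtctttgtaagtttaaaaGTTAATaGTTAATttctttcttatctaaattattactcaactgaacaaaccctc
Ugt2b1 (chr5:86926504-86926603, minus strand): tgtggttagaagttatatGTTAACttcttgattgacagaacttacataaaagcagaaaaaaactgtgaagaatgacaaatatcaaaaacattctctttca
Ugt2b35 (chr5:87000760-87000859, plus strand): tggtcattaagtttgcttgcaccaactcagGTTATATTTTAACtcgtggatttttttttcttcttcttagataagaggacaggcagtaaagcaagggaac
Ugt2b5 (chr5:87140341-87140440, minus strand): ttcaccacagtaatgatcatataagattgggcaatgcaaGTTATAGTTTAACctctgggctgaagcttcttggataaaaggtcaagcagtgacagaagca
Ugt2b38 (chr5:87424204-87424303, minus strand): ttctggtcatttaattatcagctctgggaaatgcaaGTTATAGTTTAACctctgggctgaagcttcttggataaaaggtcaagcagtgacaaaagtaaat

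In windows from 250 bases before to 50 bases after the start, GTTAAT was present in Ugt1a1 and Ugt2a3 and in 7.10% of all 32851 promoters. GTTAAC was present in Ugt2b1, Ugt2b34 and Ugt2b35 and in 3.05% of promoters. The 13-base motif, which holds neither of these and was chosen after the promoters had been read, was present in Ugt2b5, Ugt2b35, Ugt2b36, Ugt2b37 and Ugt2b38. It occurred in 6 promoters in all, or 0.0183%, the other being that of Pklr. The genes with this motif included the member that did not fall in any knockout comparison, Ugt2b35, and members that fell in the acute model. A match describes the sequence and is no evidence that a factor binds there. RefSeq and GENCODE start sites differed by 27 bases in Ugt2b1, 22 in Ugt2b5 and 16 in Ugt2b37.

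In control libraries the make-up of the family changed with age. In P10 controls Ugt1a1 had the highest level, 237 ± 8.62 TPM (SD, n = 2), followed by Ugt2b36 with 217 ± 10.9 TPM, Ugt2b5 with 187 ± 2.36 TPM and Ugt2b34 with 168 ± 8.85 TPM. Ugt2b37 and Ugt2b38 were listed at 0.0164 to 0.0226 TPM in these libraries. The neighbours in this order did not overlap, apart from the last pair. At 1 month Ugt2b5 was first with 419.6 ± 18.8 TPM, Ugt2b36 second with 291 ± 4.83 TPM and Ugt1a1 next with 193 ± 52.0 TPM. In GFP-injected adults Ugt2b5 was again first with 656 ± 123 TPM (SD, n = 3). Ugt2b1 followed with 437 ± 40.8 TPM and overlapped Ugt2b36, at 421 ± 60.2 TPM.

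From P10 to 1 month in controls 3 members, Ugt2a3, Ugt2b1 and Ugt2b5, rose and none was called lower. Ugt2b37 and Ugt2b38 were also called higher, but they passed the minimum mean of 1 TPM only through the 1 month libraries and could only be called in that direction, so their calls are no result. In this comparison 44.3% of all genes tested changed, 6.08% rising and 38.2% falling (limma on log2(TPM + 1), Benjamini-Hochberg adjusted p under 0.05). Fold changes are given on this log2 scale relative to the median change of all genes, while the adjusted p belongs to the unshifted TPM. The median was -0.43 for this comparison. Summed markers of other cells were higher at P10 than at 1 month. In controls those of Kupffer cells and macrophages were 253 to 271 against 9.50 to 11.3 TPM, and in HKO 304 to 475 against 34.1 to 90.5 TPM. In controls endothelial markers were 67.51 to 67.95 against 6.62 to 8.20 TPM, and erythroid markers 228 to 383 against 12.3 to 14.6 TPM. The part of other cells in the changes with age was not tested. Ugt2a3 was 19.7 and 16.0 TPM in P10 controls and 99.6 and 129 TPM at 1 month, a relative change of 3.04 ± 0.29 (SE; adjusted p = 2.996e-05). Ugt2b1 went from 70.1 and 64.1 to 152 and 155 TPM (relative change 1.61, adjusted p = 0.00414), and Ugt2b5 from 188.5 and 185.1 to 433 and 406 TPM (1.59, adjusted p = 0.004203). All 3 genes had separate ranges at the 2 ages. Ugt2b34 was lower at 1 month, 103.0 and 109.3 TPM against 161.9 and 174.4 TPM at P10, also without overlap. Its test did not pass (relative change -0.23, adjusted p = 0.07482). It passed with quantile normalization, without mitochondrially encoded genes, with a replicate block and with all 14 libraries in a fit. Ugt2b37 was 1.37 and 1.39 TPM and Ugt2b38 3.803 and 1.146 TPM at 1 month. The calls of Ugt2b1 (adjusted p = 0.07022) and Ugt2b38 (0.0539) were lost when all 14 libraries shared a fit. Between the same ages in HKO hepatocytes Ugt2a3, Ugt2b1, Ugt2b5 and Ugt2b36 rose and none fell, again leaving aside Ugt2b37 and Ugt2b38, where 66.6% of all genes changed, 4.46% rising and 62.2% falling. For Ugt2b36 the relative change was 1.49 (adjusted p = 0.02745). The call of Ugt2b36 was lost without HKO replicate 2 of P10 (adjusted p = 0.2152) or of 1 month (0.1004).

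**Figure D1:**
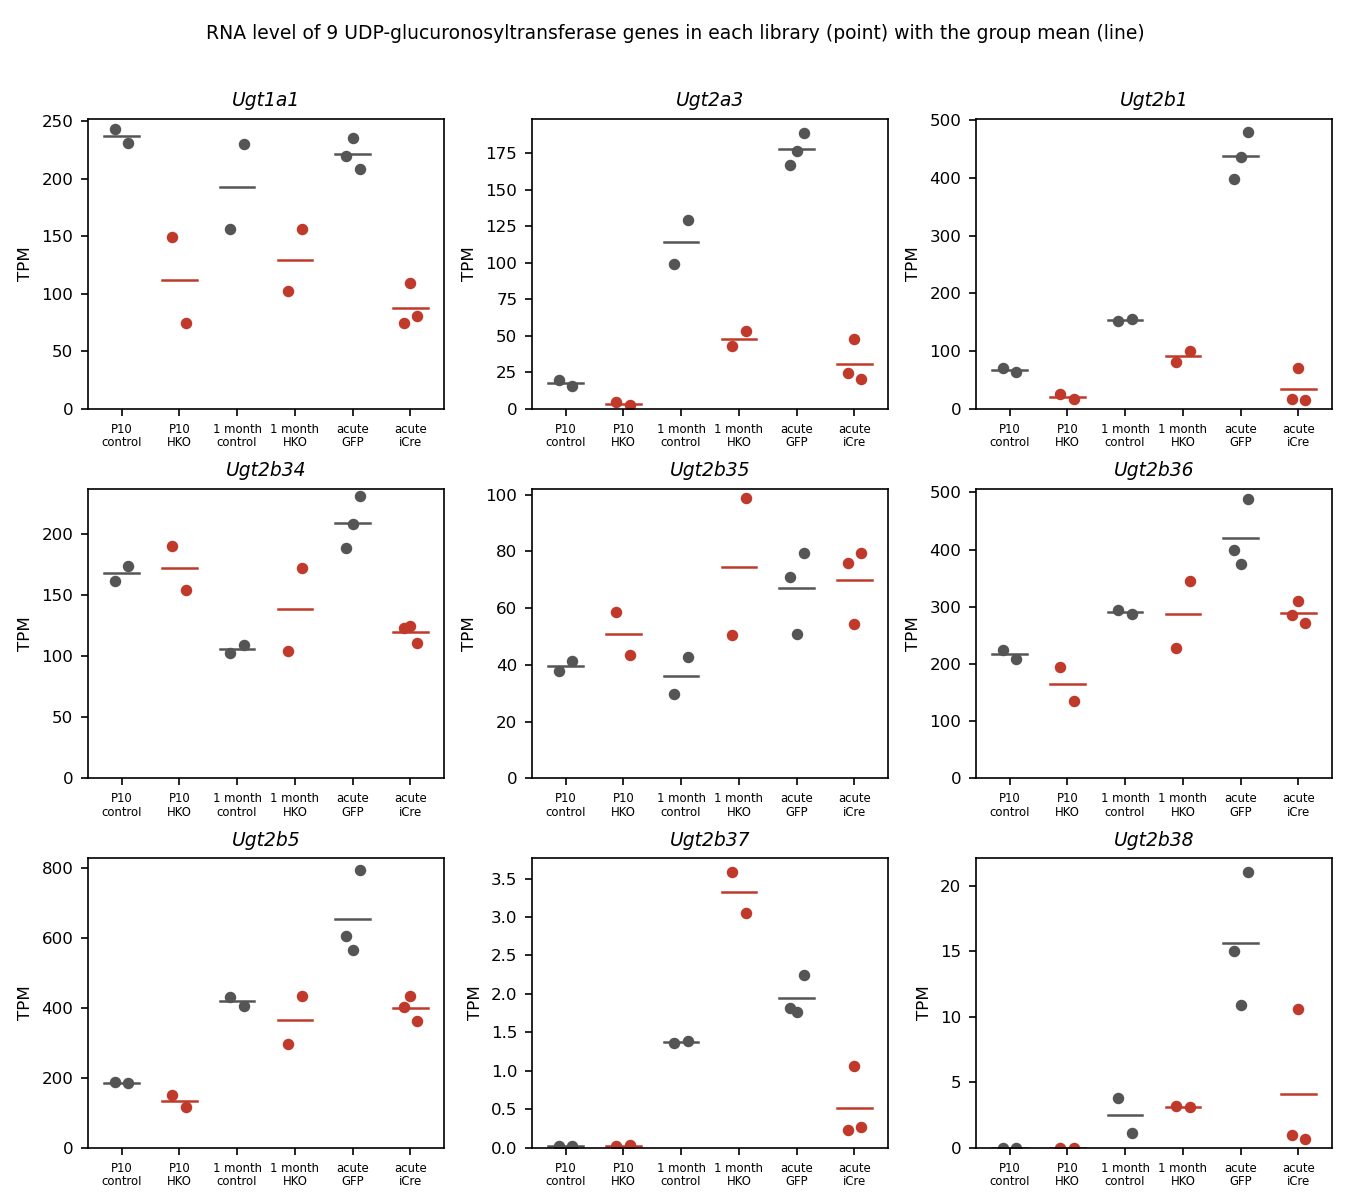
TPM of each of the 9 genes in the 14 libraries (points; grey control, red knockout) with group means (lines), on axes that start at 0. Ugt2a3 and Ugt2b1 lie below their controls in every knockout library of all 3 comparisons, whereas Ugt2b35 overlaps between GFP and iCre.

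At P10, 2 of the 9 members were lower in HKO hepatocytes and none was higher. The background was 1.87% of 11736 genes lower and 10.8% higher, or 12.7% called. With median-ratio rescaling 715 genes were higher and 699 lower, in place of 1268 and 220. The median of all genes moved by 0.25. Ugt2a3, an enzyme of the Ugt2a branch found in liver and intestine, was 19.7 and 16.0 TPM in controls and 4.89 and 2.46 TPM in HKO. The HKO libraries were both far below the controls, and the relative log2 fold change was -2.31 ± 0.29 (SE, adjusted p = 0.001054). Ugt2b1 was 70.1 and 64.1 TPM in controls and 25.8 and 16.3 TPM in HKO, again without overlap, a relative change of -1.91 ± 0.26 (adjusted p = 0.002343).

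Ugt1a1, the bilirubin enzyme, was 243 and 231 TPM in P10 controls and 149 and 74.9 TPM in HKO. Both HKO libraries were lower, but they differed from each other by about as much as the higher one differed from the controls, and the test did not pass (relative change -1.41 ± 0.35, adjusted p = 0.05446). It passed in 9 of 14 alternative settings, with adjusted p from 0.005457 to 0.3833. The second HKO library, which held the lower value, also stood apart in sex-linked RNA. It had the pattern of a female, and the other 13 libraries had that of males. Xist was 74.7 TPM in this library and at most 0.0147 TPM in the other 13. Its summed Y-linked RNA was 0.144 TPM against 24.9 to 68.0 TPM. Without it the relative changes were -1.97 for Ugt2a3 (adjusted p = 0.007419) and -1.64 for Ugt2b1 (adjusted p = 0.02951), both still past the threshold. That of Ugt1a1 was then -0.96 (adjusted p = 0.3833), so its size and call moved with that library. Erythroid markers (6 of 6 in the table, none at 0) summed to 2899 TPM in that library and 482.5 TPM in the other HKO library, against 227.8 to 382.7 TPM in controls. Hepatocyte markers (9 of 10 in the table, none at 0) summed to 57680 and 73320 TPM in the HKO group against 104300 to 109400 TPM in controls, and cholangiocyte markers (7 of 7, none at 0) to 118.0 to 147.0 against 56.9 to 69.2 TPM. The part of these cells and of sex in the members' levels was not tested.

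The other members did not pass at P10. Ugt2b5 was 188.5 and 185.1 TPM in controls and 152 and 118 TPM in HKO, and Ugt2b36 was 224 and 209 against 194 and 136 TPM. In both genes the HKO libraries lay below the controls (relative changes -0.73 ± 0.26 and -0.67 ± 0.28), and both passed when the libraries were rescaled by median ratios (adjusted p = 0.02027 and 0.04627). Ugt2b34 was 162 and 174 TPM against 190.4 and 155 TPM, overlapping, and Ugt2b35 was 37.9 and 41.4 against 58.6 and 43.4 TPM, both HKO libraries being the higher (relative change 0.09 ± 0.33, adjusted p = 0.5045). Ugt2b37 and Ugt2b38 entered the test only through their 1 month levels and were at most 0.0343 TPM at P10. In the authors' deposited table for P10, 5 of the 7 members with an adjusted p were called lower, where 25.3% of genes with one were called: Ugt2a3 (log2 fold change -2.60), Ugt2b1 (-1.99), Ugt1a1 (-1.41), Ugt2b5 (-0.78) and Ugt2b36 (-0.71).

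At 1 month 1 member, Ugt2a3, was lower in HKO, and Ugt2b37 was called higher after passing the filter only through the HKO libraries, where 1.99% of genes were lower and 4.87% higher, or 6.86% called. The median gene moved by -0.00133. Ugt2a3 was 99.6 and 129 TPM in controls and 42.9 and 53.1 TPM in HKO, without overlap (relative change -1.23 ± 0.29, adjusted p = 0.02577). This call was lost without control replicate 2 (adjusted p = 0.126), HKO replicate 1 (0.1222) or HKO replicate 2 (0.05529), and with the 4 libraries of this age alone (0.06691). Ugt2b37 was 1.37 and 1.39 TPM in controls and 3.59 and 3.05 TPM in HKO, a difference at a low level (relative change 0.86 ± 0.15, adjusted p = 0.00465). Its call was lost with a pseudocount of 0.1 (adjusted p = 0.1268) and with the 4 libraries alone (0.07131). Without either HKO library Ugt2b37 fell under the minimum mean of 1 TPM and was not tested. The filter therefore bears on its direction, and its call is no result.

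Ugt2b1 was 152 and 155 TPM in controls and 81.8 and 99.9 TPM in HKO at 1 month. Its ranges were apart, as at P10, but the test did not pass (relative change -0.75 ± 0.26, adjusted p = 0.1327). Ugt2b35 went the other way, 29.9 and 42.6 TPM in controls against 50.4 and 98.7 TPM in HKO (relative change 0.97 ± 0.33, adjusted p = 0.1229), its HKO libraries being far apart. Ugt1a1 overlapped, with 156.1 and 229.7 TPM in controls and 102 and 156.2 TPM in HKO. Ugt2b5, Ugt2b34, Ugt2b36 and Ugt2b38 had relative changes between -0.22 and 0.37, and none passed. The authors' deposited table called 4 of 9 at 1 month, where 13.5% of genes with an adjusted p were called: Ugt2a3 (log2 fold change -1.33) and Ugt2b1 (-0.84) lower, and Ugt2b35 (0.92) and Ugt2b37 (1.22) higher.

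Within the 1 month HKO group, replicate 2 held the higher value for 7 of the 9 members. Its summed Kupffer cell and macrophage markers (7 of 7 in the table) were 34.1 TPM against 90.5 TPM in replicate 1 and 9.50 to 11.3 TPM in controls, with none of these markers at 0. Cholangiocyte markers summed to 20.1 and 34.4 TPM in HKO against 1.59 to 1.93 TPM in controls, where Cldn4 and Cftr were at 0. Mitochondrially encoded RNA was 50.6% of TPM in HKO replicate 1, 35.8% in replicate 2, and 31.2% and 26.0% in controls. The part of other cells and of mitochondrial RNA in these differences was not tested. Hepatocyte markers (9 of 10 in the table) were above 0 in every group, with sums of 48480 to 65780 TPM in HKO and 57930 to 75230 TPM in controls.

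In the acute model 8 of the 9 members were called lower, against 34.8% of 9963 genes that were lower and 5.93% higher, or 40.7% called. Of these members, Ugt2b37 passed the minimum mean of 1 TPM only through the GFP libraries. It could only be called lower, so its call is no result. The median of all genes moved by -0.36, so part of each difference in TPM was shared with the median gene. Mitochondrially encoded RNA made up 33.5% to 42.9% of TPM with iCre and 11.8% to 16.1% with GFP. Hepatocyte markers summed to 30140 to 46430 TPM with iCre and 37000 to 48120 TPM with GFP, none at 0. With the mitochondrially encoded genes left out, 1148 genes were higher and 835 lower, in place of 591 and 3467, and 5 members remained lower. Those 5 were Ugt1a1, Ugt2a3, Ugt2b1, Ugt2b38 and, with the same limit, Ugt2b37. With median-ratio rescaling 5 members were also lower, Ugt2b34 taking the place of Ugt2b38. Fewer hepatocytes and less RNA per hepatocyte cannot be told apart in such samples.

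Ugt2b1 differed most. Its level was 397, 436 and 479 TPM in the GFP libraries and 16.6, 70.7 and 15.2 TPM in the iCre ones, a mean of 7.81% of the GFP mean. The ranges were far apart, with iCre replicate 2 well above the other two (relative change -3.64 ± 0.38, adjusted p = 1.096e-06). Ugt2a3 went from 167, 177 and 189 TPM to 24.8, 47.7 and 20.3 TPM (relative change -2.21 ± 0.25, adjusted p = 1.459e-06), with the same library highest. Ugt2b38 went from 15.0, 10.9 and 21.1 TPM to 0.991, 10.6 and 0.663 TPM. In Ugt2b38 replicate 2 came within reach of the lowest GFP library, while the other iCre libraries were near 1 TPM or under it (relative change -1.90 ± 0.48, adjusted p = 0.001687). This call was lost without GFP replicate 3 (adjusted p = 0.07087).

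Ugt1a1 measured 220.0, 236 and 208 TPM after GFP and 74.6, 109 and 80.4 TPM after iCre, a mean of 39.8% of the GFP mean. The groups were apart and the fall exceeded that of the median gene (relative change -0.98 ± 0.21, adjusted p = 0.0001312). The adjusted p of Ugt1a1, Ugt2a3 and Ugt2b1 stayed under 0.05 in each of 15 alternative settings. Ugt2b37 went from 1.82, 1.76 and 2.25 TPM to 0.238, 1.07 and 0.266 TPM, without overlap (relative change -0.63 ± 0.22, adjusted p = 0.002331), but passed the filter only through the GFP libraries, and without it 7 members fell. Ugt2b34 was 189, 208 and 231 TPM against 124, 125 and 111 TPM (relative change -0.43 ± 0.20, adjusted p = 0.004831).

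Ugt2b5 and Ugt2b36, the most abundant members with iCre, both fell in TPM, Ugt2b36 by little more than the median gene. Ugt2b5 went from 606, 566 and 795 TPM to 402.5, 433.5 and 362 TPM (relative change -0.34 ± 0.22, adjusted p = 0.01649). Ugt2b36 was 399, 375 and 489 TPM against 286, 311 and 271 TPM (-0.17 ± 0.21, adjusted p = 0.04731). In neither gene did the groups overlap, but Ugt2b5 did not pass without GFP replicate 3 (adjusted p = 0.05742) or iCre replicate 1 (0.05032), and Ugt2b36 did not pass without any single one of the 6 libraries. Under quantile normalization the relative change of Ugt2b36 was 0.07. Ugt2b35 measured 70.95, 50.8 and 79.3 TPM in controls and 75.8, 54.5 and 79.6 TPM after iCre, overlapping throughout (relative change 0.43 ± 0.22, adjusted p = 0.8283). The authors' deposited table called 6 members lower and none higher, where 32.5% of genes with an adjusted p were called. The 3 not called there were Ugt2b35, Ugt2b36 and Ugt2b38.

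The library of iCre replicate 2 held the highest of the 3 iCre values for 8 of 9 members. It also had the highest Srsf1 of its group, 5.34 TPM against 3.69 and 4.16 TPM, and the lowest Kupffer cell and macrophage sum, 4.73 TPM against 15.3 and 29.9 TPM and 3.11 to 8.08 TPM with GFP. The part of these in the members' levels was not tested. Without it 7 members were lower, Ugt2b36 being lost, and the relative changes were -4.33 for Ugt2b1, -2.56 for Ugt2a3, -2.79 for Ugt2b38 and -1.14 for Ugt1a1. Without GFP replicate 3, which held the highest GFP value for 8 of 9 members, 5 were lower. With each of the other 4 libraries left out in turn, 6 or 7 were. Each of these counts includes Ugt2b37, whose call is no result.

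**Figure D2:**
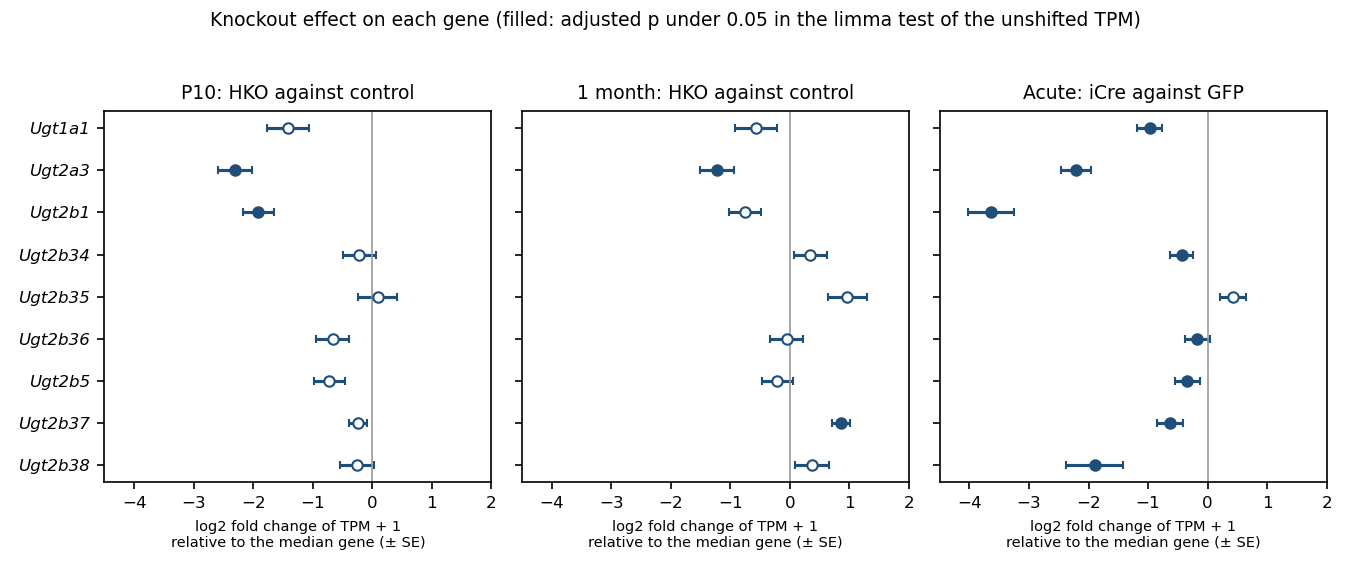
Log2 fold change of TPM + 1 relative to the median gene, with its SE, for each gene in the 3 knockout comparisons (filled symbols: adjusted p under 0.05 in the test of unshifted TPM). Ugt2a3 and Ugt2b1 lie farthest to the left at P10 and in the acute model, where Ugt2b1 reaches -3.64, and Ugt2b35 lies to the right of 0 in all 3. The filled symbols of Ugt2b37 are no result, as it passed the filter only through the group where it was high.

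Along the chromosome 5 cluster the effects differed between neighbours. In the acute model Ugt2b1, with -3.64, lay between Ugt2b34, 9.70 kb away with -0.43, and Ugt2b35, 74.3 kb away with 0.43. Ugt2a3, with -2.21, lay between Ugt2b37 (-0.63) and Ugt2b38 (-1.90). The stretch of Ugt2b35, Ugt2b36 and Ugt2b5 in the middle held the 3 relative changes nearest to or above 0 in that comparison, although Ugt2b5 and Ugt2b34 differed by less than their SE. At P10 Ugt2b1 and Ugt2a3 had the same place as the lowest.

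**Figure D3:**
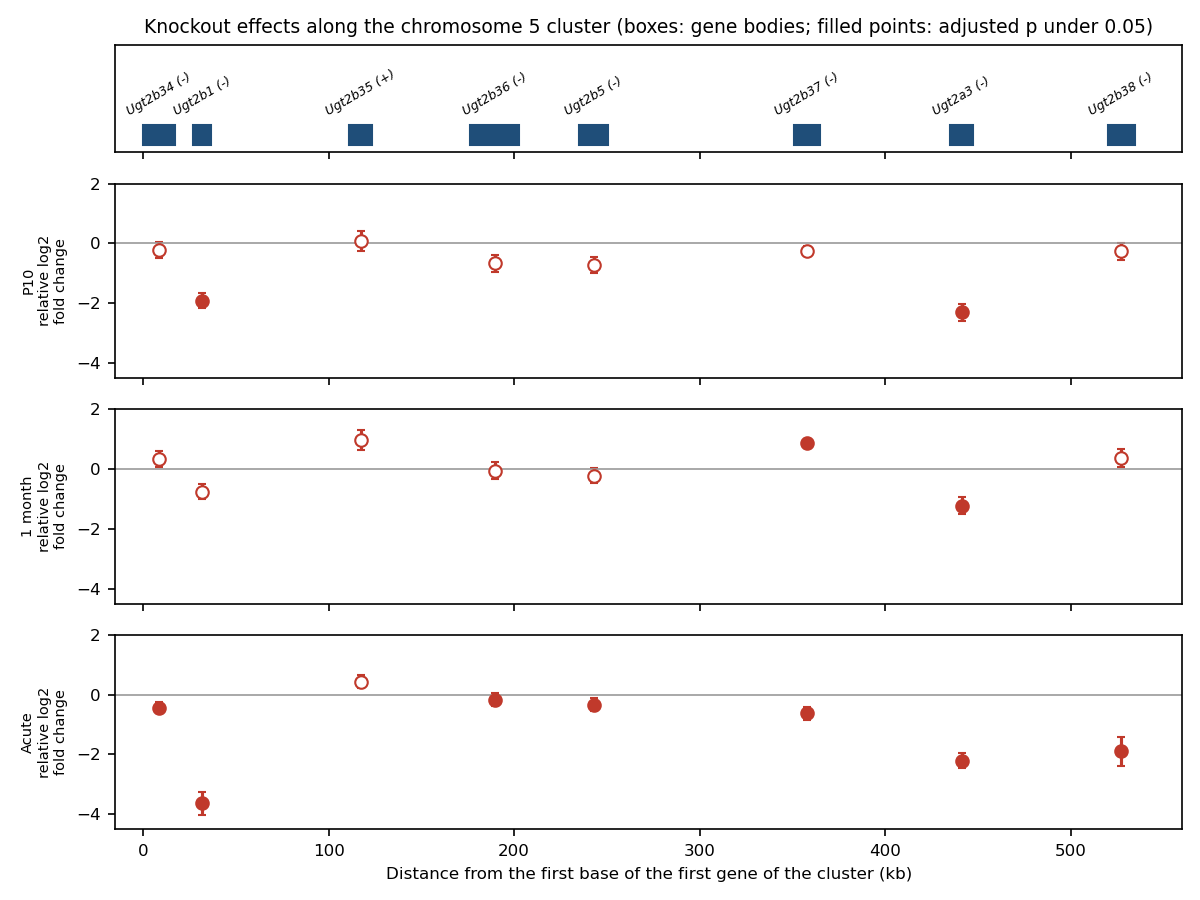
Gene bodies of the 8 chromosome 5 members to scale, by distance in kb from the start of Ugt2b34, above their log2 fold changes relative to the median gene with SE in the 3 comparisons (filled: adjusted p under 0.05). Ugt2b1 and Ugt2a3 lie below their neighbours in all 3 comparisons, with Ugt2b38 close to Ugt2a3 in the acute model. The filled points of Ugt2b37 are no result.

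The summed level of the 9 members was 934 ± 17.5 TPM in P10 controls and 661 ± 162 TPM in HKO (SD, n = 2 each). At 1 month it was 1318 ± 62.9 and 1141 ± 320 TPM, and the ranges of the 2 groups overlapped. After GFP it was 2207 ± 249 TPM and after iCre 1036 ± 114 TPM (n = 3 each), without overlap. Ugt2b1 supplied on average 19.9% of the sum with GFP and 3.12% with iCre, and Ugt2a3 8.09% and 2.91%. The shares of Ugt2b5, 29.6% and 38.6%, and of Ugt2b36, 19.0% and 28.0%, were higher with iCre. Ugt1a1 supplied 25.4% of the sum in P10 controls, 16.5% in P10 HKO, 14.6% and 11.3% at 1 month, and 10.1% and 8.45% in the acute groups. These sums are descriptions and were not tested. They are parts of all TPM, of which mitochondrially encoded RNA was 26.0% to 31.2% in 1 month controls and 35.8% to 50.6% in HKO. It was 11.8% to 16.1% with GFP and 33.5% to 42.9% with iCre. The part of mitochondrial RNA in the sums was not tested.

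**Figure D4:**
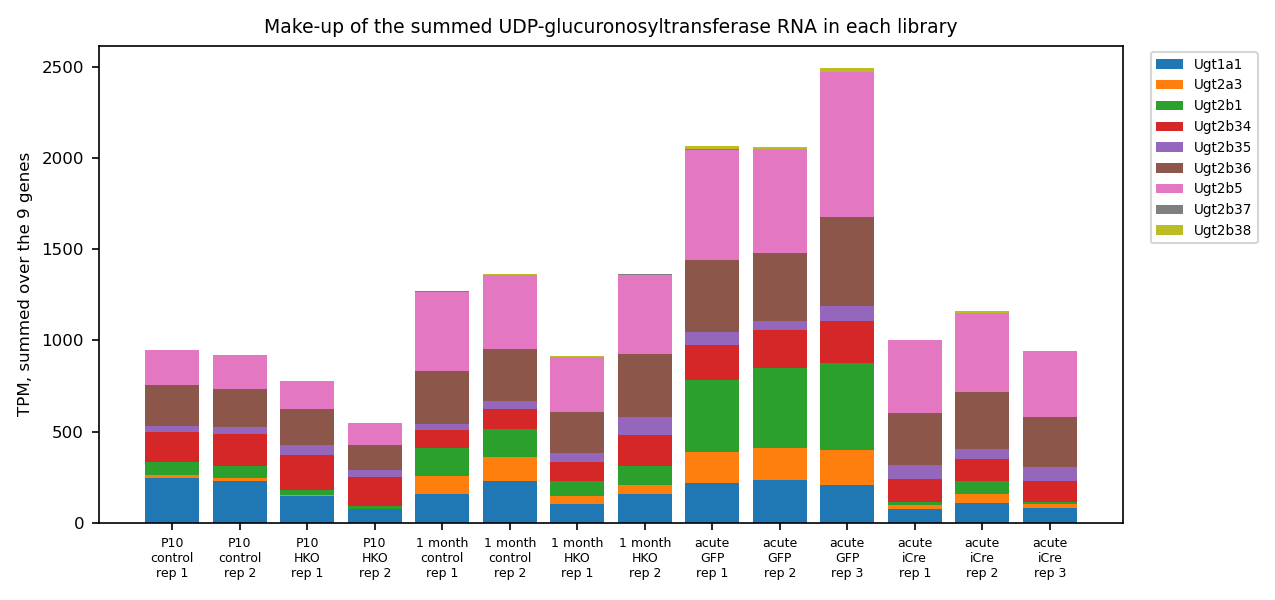
Summed TPM of the 9 genes in each of the 14 libraries, stacked by gene. The 3 iCre libraries reach 941 to 1163 TPM against 2061 to 2494 TPM with GFP, and the Ugt2b1 layer (green) is the one that shrinks most.

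The knockout effects were also compared with each other. None of the 9 effects passed in the limma contrast of 1 month against P10, where 2.80% of genes were called, 1.80% lower and 1.01% higher. Of the 9, Ugt2b1 (difference of relative changes 1.16 ± 0.37, adjusted p = 0.2624) and Ugt2b37 (1.095 ± 0.21, adjusted p = 0.05707) had an unadjusted p under 0.05. Between the acute model and 1 month 3 effects differed, all lower in the acute model, where 5.82% of 11219 genes were lower and 1.01% higher, or 6.83% called. These were Ugt2b1 (difference of relative changes -2.92 ± 0.64, adjusted p = 0.007833), Ugt2b37 (-1.52 ± 0.27, adjusted p = 0.0007977) and Ugt2b34 (-0.81 ± 0.31, adjusted p = 0.0388). In both contrasts Ugt2b37 passed the minimum mean of 1 TPM only through the 1 month HKO libraries, where it was high. Its values there are no result. Age, vector, Cre source and control genotype also differed between these models and cannot be told apart from the timing of the deletion.

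Srsf1 acts in splicing, so the isoforms of the members were examined. A single transcript stood for 7 of the members, while Ugt2b34 had 2 and Ugt2b36 had 4. For Ugt2b34, Ugt2b34-201 made up 98.2% to 99.3% of the gene in each group mean. Ugt2b36 was the only member with enough of a second transcript to test. Of 2 transcripts entering each test, the minor one was Ugt2b36-203 at P10 and 1 month and Ugt2b36-204 in the acute model, where Ugt2b36-203 was under 5% of the gene's mean and was not tested. Ugt2b36-203 was 3.21% ± 0.42 of the gene with GFP and 7.35% ± 0.39 with iCre (SD, n = 3 each), 3.83% ± 0.92 and 6.995% ± 0.24 at 1 month, and 6.94% ± 0.04 and 9.42% ± 1.42 at P10 (n = 2 each). The knockout values were above the controls in each comparison. The retained-intron transcript Ugt2b36-204 was 7.11% ± 1.28 with GFP and 4.61% ± 0.34 with iCre. Usage of Ugt2b36 did not pass in any comparison (limma diffSplice, adjusted p = 0.1437 with iCre, 0.6986 at 1 month and 1 at P10, with an unadjusted p under 0.05 at 1 month). Usage was called in 0.586%, 0.234% and 35.5% of tested genes at P10, at 1 month and with iCre, respectively. Among the other Ugt genes, Ugt1a6a was tested and its usage changed in the acute model (Ugt1a6a-203 by 12.0 percentage points, adjusted p = 3.84e-05). Isoforms outside the annotation are not seen in these data.

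Across the 14 libraries the log2 levels of pairs of members correlated with a median Pearson's r of 0.49 over 36 pairs, from -0.24 for Ugt1a1 with Ugt2b35 to 0.97 for Ugt2b5 with Ugt2b36. The genes most like Ugt1a1, among 5949 with a mean of at least 5 TPM, were Pecr (r = 0.934), Pccb (0.930), Cyp2c37 (0.929), Pon3 (0.918) and Igfals (0.916). Those most like Ugt2b5 were Sult2a8 (0.983), Ldhd (0.976), Slco2b1 (0.974), Mettl7a1 (0.972) and Mfsd4b1 (0.969). These values mix age, model and genotype, share the libraries, and are descriptions only.

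Of 13 other Ugt genes, 6 were expressed highly enough to test. At P10 2 of them fell, Ugt3a1 (relative change -1.04, adjusted p = 0.04299) and Ugt3a2 (-1.37, adjusted p = 0.03772), which use sugars other than glucuronic acid. Of all genes, 1.87% fell at P10 and 1.99% at 1 month. At 1 month Ugt1a6b fell, from 39.6 and 44.4 TPM in the 2 controls to between 15.7 and 21.5 TPM in HKO (-1.15, adjusted p = 0.03557). Ugt1a6b encodes an enzyme for small planar phenols. All 6 fell in the acute model, where 34.8% of all genes did, with Ugt1a6b going from 62.1 ± 8.99 to 13.8 ± 2.83 TPM (-1.73, adjusted p = 1.459e-06) and Ugt3a1 from 44.9 ± 8.00 to 11.3 ± 5.19 TPM (-1.61, adjusted p = 1.978e-05). The median relative change of the 6 was -0.81 there. That of the 9 members, -0.63, was the value of Ugt2b37, which passed the filter only through the GFP libraries, so it gives no comparison.

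Among genes that supply the sugar donor, Ugdh, which oxidises UDP-glucose to UDP-glucuronate, rose in all 3 comparisons. It was 6.85 ± 0.51 TPM in P10 controls and 51.9 ± 4.63 TPM in HKO, with a relative change of 2.50 ± 0.32 (adjusted p = 0.000345). At 1 month it was 24.1 and 26.9 TPM in controls and 49.4 to 109 TPM in HKO (1.49 ± 0.32, adjusted p = 0.01748). With GFP it was 40.7 to 70.7 TPM and with iCre 58.4 to 97.6 TPM, which overlapped (1.08 ± 0.25, adjusted p = 0.03076). Ugp2, which makes UDP-glucose, fell in the acute model (-0.34, adjusted p = 0.009639) and did not pass at P10 or 1 month. The authors' deposited table also called it lower at P10 (log2 fold change -0.47). Over the 9 genes of this list 3 rose at P10 (Ugdh, Pgm1 and the nucleotide-sugar transporter gene Slc35b1) and none fell. Of all genes, 10.8% rose and 1.87% fell at P10, and 4.87% rose and 1.99% fell at 1 month. At 1 month Ugdh alone passed, and in the acute model 1 rose and 4 of 8 tested fell, where 5.93% of all genes rose and 34.8% fell. Gusb, the glucuronidase that removes glucuronic acid, fell in the acute model (-0.52, adjusted p = 0.0037) and did not pass at P10 (0.37, adjusted p = 0.0824) or 1 month (-0.27, adjusted p = 0.5842). The authors' deposited table called Gusb higher at P10 (log2 fold change 0.36). Its effect at 1 month did not pass in the tests against P10 or the acute model.

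Transporters of glucuronides and other organic anions moved in both directions at P10 and in the acute model. Of 10 tested, 2 rose and 2 fell at P10, 1 rose and 1 fell at 1 month, and of 9 tested in the acute model 3 rose and 5 fell. The rise at 1 month and 1 of the 2 at P10 were those of Abcc4, whose calls are no result. The shares of all genes higher and lower were 10.8% and 1.87% at P10, 4.87% and 1.99% at 1 month, and 5.93% and 34.8% in the acute model. Abcc3, an exporter to the blood side, rose at P10 (5.77 ± 0.74 to 21.2 ± 3.68 TPM, relative change 1.46, adjusted p = 0.0008284) and in the acute model (1.18, adjusted p = 0.003068), but was -0.35 at 1 month (adjusted p = 0.481). Abcc4, on the same side, was called higher at P10 (1.66, adjusted p = 0.0005754) and at 1 month, from 0.0522 ± 0.00101 to 3.09 ± 1.72 TPM (1.89, adjusted p = 0.0006981). It passed the filter only through the HKO libraries and could only be called higher. The bile exporter Abcc2 rose in the acute model, from 74.9 ± 7.39 to 122 ± 10.2 TPM (1.06, adjusted p = 0.01033).

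The uptake carrier gene Slco1a1 fell from 69.5 ± 18.8 to 12.7 ± 0.82 TPM at 1 month (relative change -2.34, adjusted p = 5.139e-05) and from 188 ± 32.1 to 20.8 ± 13.9 TPM in the acute model (-2.94, adjusted p = 1.23e-06). Slco1a4 fell at P10 (-2.06, adjusted p = 0.03985) and in the acute model (-2.59, adjusted p = 3.062e-07). Slco1b2, which takes up bilirubin and its conjugates, fell in the acute model from 406 ± 64.7 to 151 ± 10.6 TPM (-1.05, adjusted p = 7.646e-05) and did not pass at P10 (adjusted p = 0.112) or 1 month (0.1962). At both ages its HKO libraries lay below the controls. The authors' deposited table called it lower at P10 (log2 fold change -0.99) and at 1 month (-0.74). Slc22a7, an organic anion carrier, was lower at P10 (46.2 ± 1.36 to 27.9 ± 1.75 TPM, -0.96, adjusted p = 0.04374) and higher in the acute model (10.2 ± 2.88 to 43.9 ± 4.83 TPM, 2.40, adjusted p = 2.926e-06).

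Of the 4 genes that form bilirubin from heme, Hmox1, the inducible heme oxygenase, rose at P10 (29.6 ± 1.72 to 76.0 ± 28.1 TPM, relative change 1.03, adjusted p = 0.0157) and at 1 month (2.53 ± 0.38 to 6.94 ± 2.22 TPM, 1.15, adjusted p = 0.03622). Macrophages also express Hmox1, and their summed markers were 304 to 475 TPM in P10 HKO against 253 to 271 TPM in controls. At 1 month they were 34.1 and 90.5 TPM in HKO against 9.50 and 11.3 TPM in controls. The part of macrophages in the Hmox1 levels was not tested. Blvra, a biliverdin reductase, fell in the acute model (-0.63, adjusted p = 0.0008922).

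Of 16 tested genes for transcription factors and nuclear receptors with known roles in Ugt expression, 1 rose and none fell at P10, 1 fell at 1 month, and 7 fell in the acute model, a share near that of all genes lower there (34.8%). Of all genes, 10.8% rose and 1.87% fell at P10, and 4.87% rose and 1.99% fell at 1 month. Hnf4a, a master regulator of hepatocyte genes, was 132 ± 18.8 TPM in 1 month controls and 59.7 ± 28.1 TPM in HKO (relative change -1.21, adjusted p = 0.04733). With iCre it went from 129 ± 22.2 to 42.0 ± 10.7 TPM (-1.26, adjusted p = 4.588e-05). At P10 it was 64.2 ± 0.13 and 65.7 ± 13.4 TPM. Foxa2 fell in the acute model from 14.5 ± 2.47 to 3.09 ± 0.58 TPM (-1.55, adjusted p = 3.393e-06), with Foxa1 (-1.26, adjusted p = 1.599e-05) and Ppara (-0.60, adjusted p = 0.000958) among the others. The receptor genes Nr1i2 (PXR) and Nr1i3 (CAR), which mediate induction of Ugt genes by foreign compounds, did not pass in any of the 3 comparisons, with relative changes between -0.92 and 0.35. However, Nr1i3 averaged 112 TPM in 1 month controls and 58.9 TPM in HKO, without overlap. The authors' deposited table called Nr1i3 lower at P10 (log2 fold change -0.71) and at 1 month (-1.01), and did not call Nr1i2. Nfe2l2, the regulator of the oxidant response, was the gene that rose at P10 (0.56, adjusted p = 0.04611).

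**Figure D5:**
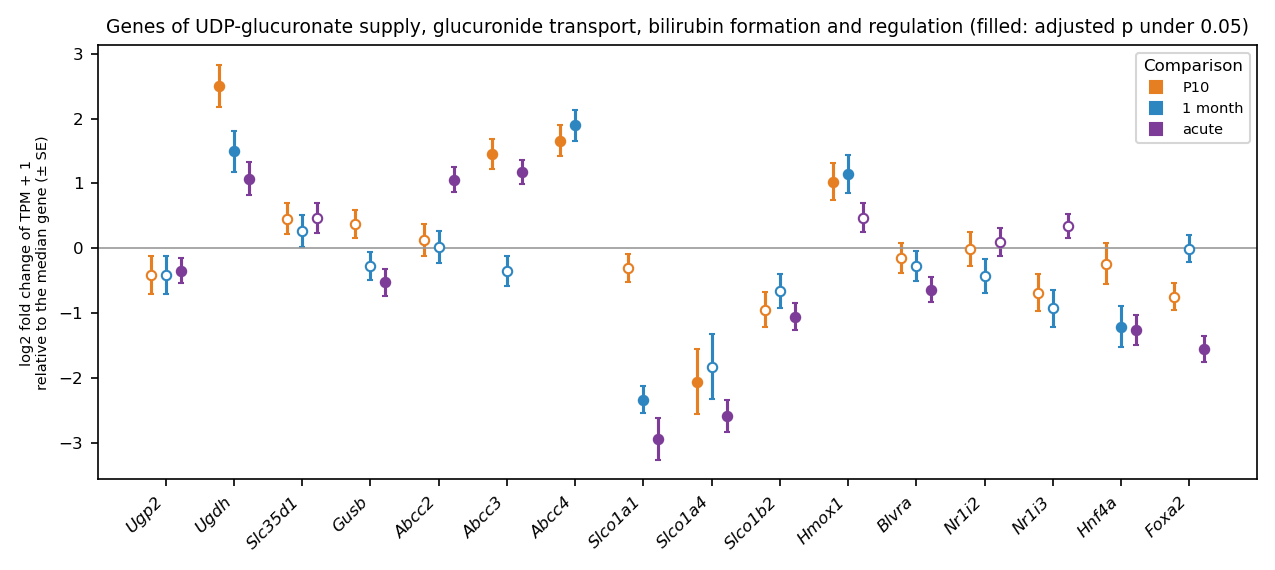
Log2 fold change of TPM + 1 relative to the median gene, with SE, for genes of donor supply, transport, bilirubin formation and regulation in the 3 comparisons (filled: adjusted p under 0.05; genes under 1 TPM in a fit are not drawn for it). Ugdh lies above 0 in all 3, and Slco1a1 and Hnf4a lie low at 1 month and in the acute model. Abcc4 passed the filter only through the HKO libraries, so its filled points are no result.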

How the data were processed

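The authors deposited transcript TPM for 14 libraries. Per the submitters' processing notes, bcl2fastq 2.17.1.14, kallisto 0.46.0, DESeq2 and GRCm38 (mm10) were used. Per the file headers, 3 further tables give a mean normalized count (signal), a log2 fold change, a test score, a p-value and an adjusted p-value per gene. The sources used here do not say how genes were counted. TPM keep no depth, so the depth per library is unknown and no counting interval can be given.

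Gene TPM were summed over transcripts and fitted with limma 3.58.1 in R 4.3.3 (eBayes, mean-variance trend; two-sided tests) on log2(TPM + 1). Genes averaging under 1 TPM were left out, and p-values were adjusted over all genes tested. P10 and 1 month shared a fit of 8 libraries, the acute model used 6, and its difference from 1 month used 14. Transcript usage was tested with diffSplice and called with a change of at least 10 percentage points. The scripts were tested on simulated data. Replicate numbers were not taken as pairs. Coordinates come from GENCODE M21, whose identifiers matched all 9 members. Alternatives covered pseudocount, filter, scaling, gene set, library set, replicate block and each library left out.

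The members and lists were chosen with earlier results of these data known. All 9 members are named, with list genes that passed (up to 4 per list and comparison by smallest p) and 9 fixed pathway genes, of which 1 is not reported here.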

Additional observations from a re-analysis of the deposited data

Results flagged for a closer look

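The knockout effect differed between the acute model and 1 month by a test of the difference itself for 3 members. The difference of log2 fold changes, relative to the median gene, was -2.92 for Ugt2b1, whose level was 34.2 ± 31.6 TPM with iCre against 437 ± 40.8 TPM with GFP, and 90.8 ± 12.8 against 153 ± 2.20 TPM at 1 month. It was -1.52 for Ugt2b37, which was higher in HKO at 1 month and lower with iCre, at levels of 0.238 to 3.59 TPM in these libraries. It was -0.81 for Ugt2b34, whose call was lost without any one of 8 of the 10 libraries (adjusted p from 0.05653 to 0.1365), those kept being HKO replicate 1 at 1 month and GFP replicate 1. The call of Ugt2b1 was lost without HKO replicate 2 at 1 month (adjusted p = 0.05148). The call of Ugt2b37 was kept in all alternatives that could be run. However, Ugt2b37 passed the minimum mean of 1 TPM in this fit only through the 1 month HKO libraries, where it was high. Its call is therefore no result.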

How the results depend on the processing

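The number of all genes called moved with these settings. At P10 it was 1488 of 11736, then 1414 of 11504 with median-ratio rescaling and 2541 of 11736 with quantile normalization. Without mitochondrially encoded genes it was 3582 of 12692. At 1 month it was 805 of 11736, then 391 of 32890 with no filter and 545 of 6845 with a minimum of 5 TPM. With quantile normalization it was 1325 of 11736, without mitochondrial genes 2856 of 12692 and with the replicate block 1503 of 11736. The counts of members include Ugt2b37, and with age Ugt2b38, wherever these passed, although those calls are no result. The number of members called changed by over 1.5 times under several settings. At P10 it was 2 and became 5 with median-ratio rescaling, 5 with quantile normalization and 4 without mitochondrially encoded genes (2 to 3 with a library left out). At 1 month it was 2 and became 1 with a pseudocount of 0.1, with no filter or with a minimum of 5 TPM, 4 with quantile normalization, without mitochondrial genes or with the replicate block, and 0 with the 4 libraries alone, an alternative chosen after seeing the data (0 to 3 with a library left out). The members added at 1 month were Ugt2b34 and Ugt2b35, both higher in HKO, with quantile normalization or without mitochondrial genes. With the replicate block they were Ugt2b1, lower, and Ugt2b35, higher. In the acute model 8 became 4 with no filter or quantile normalization and 5 with median-ratio rescaling or without mitochondrial genes (5 to 7 with a library left out). All genes called there were 4058 of 9963, then 2769 of 29662 with no filter and 4144 of 9963 with quantile normalization. They were 4121 of 9916 with median-ratio rescaling and 1983 of 10644 without mitochondrial genes. With age in controls 5 became 3 with a minimum of 5 TPM, where Ugt2b37 and Ugt2b38 are not tested (5 to 5), and in HKO 6 became 9 with median-ratio rescaling, 8 with quantile normalization, 7 with the replicate block or without mitochondrial genes, 5 with no filter and 4 with a minimum of 5 TPM (5 to 6 with a library left out). For the 1 month effect against P10, 0 became 3 with quantile normalization and 1 with protein-coding genes only or without mitochondrial genes (0 to 0). For the acute effect against 1 month, 3 became 1 with no filter and 5 with protein-coding genes only or the replicate block (1 to 4). Among all genes, calls with age in controls were 5194 of 11736, then 2634 of 6845 with a minimum of 5 TPM. In HKO they were 7820 of 11736, then 4547 of 11504 with median-ratio rescaling and 5586 of 11736 with quantile normalization. With the replicate block they were 8850 of 11736 and without mitochondrial genes 7927 of 12692. With no filter they were 10973 of 32890 and with a minimum of 5 TPM 4466 of 6845. The replicate block gave 3 members at P10 and 6 in the acute model, where 2936 of 11736 and 3208 of 9963 genes were called. With it Ugt1a1 at P10 passed (adjusted p = 0.005457). Across genes, the deviations of same-numbered control and knockout libraries from their group means correlated at 0.0072 at P10 and 0.283 at 1 month. In the acute model they correlated at -0.0392, 0.27 and 0.184. With 2 libraries per group the deviations mirror each other, so P10 and 1 month cannot show which libraries belong together. In the acute model not every library correlated best with its own number. The numbers were not taken as pairs, and whether they mark pairs is not known. Transcript usage gave 0 throughout; the alternatives in which Ugt2b36 had no second transcript to test gave no value. Signs turned in 16 of 916 single values, 15 of them for genes not called. These were Ugt2b34 (P10, no filter, 0.01016; HKO with age, no filter, -0.29), Ugt2b35 (P10, without an HKO library, -0.07847 to 0.2578; control age, no filter, -0.12), Ugt2b5 (1 month, quantile, 0.22), Ugt2b38 (without a control library of 1 month, -0.2875 to 1.017 at 1 month and -0.02009 to 1.272 for 1 month against P10), Ugt1a1 (control age: -0.29 with no filter, -0.29 with quantile, -0.09696 to 0.3245 without a library) and Ugt2b36 (1 month: 0.003744 with a minimum of 5 TPM, 0.31 with quantile, 0.007962 without mitochondrial genes, -0.148 to 0.06608 without a library). Ugt2b36 in the acute model turned from a call to 0.0694 with quantile normalization. The cause of these changes was not tested. TPM keep no depth, so how far depth limits these values is unknown.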
